A study of Sus scrofa with 63 samples.

Results

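The expression of 10 genes that build the microvilli of the intestinal brush border was examined in the jejunum of pig fetuses near the end of gestation. The genes are VIL1, EZR, MYO1A, ESPN, PLS1, USH1C, CDHR2, CDHR5, KRT20 and EPS8. All probes that the array files name for 1 of these 10 genes, in any letter case, were taken, whatever their result. This gave 9 of the 60305 non-control probes, for 5 of the 10 genes: CDHR2 (1 probe), EPS8 (2), ESPN (1), EZR (4) and USH1C (1). A further 4 probes belong to 3 other genes of the set through names outside the array files. The KRT20 probe was matched through the gene number and the VIL1 probe through the transcript in the RefSeq table. The 2 MYO1A probes are named only in the study's lists of probes selected on these same arrays, so their difference with age is given as a description, without a test. PLS1 and CDHR5 were not matched to a probe and are not analysed here.

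The study compared Large White (LW) pigs, a breed selected for lean growth, with Meishan (MS) pigs, a Chinese breed whose piglets survive better after birth. At day 90 of gestation there were 9 LW, 6 MS, 9 LWMS and 8 MSLW fetuses, and at day 110 there were 9 LW, 7 MS, 9 LWMS and 6 MSLW fetuses. LWMS fetuses had an LW sire and an MS sow, and MSLW fetuses an MS sire and an LW sow. The fetuses were male and were taken by caesarean; sows had been inseminated with mixed semen of both breeds, so that a litter could hold purebred and crossbred fetuses, and which fetuses shared a sow was not used. RNA came from whole jejunum, in which fewer cells of a type and less RNA per cell cannot be told apart.

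Microvilli are finger-like projections of the apical membrane of enterocytes, each held up by a bundle of actin filaments. VIL1 (villin), ESPN (espin), PLS1 (plastin 1) and EPS8 bundle or cap the filaments, EZR (ezrin) and MYO1A (brush border myosin-I) tie the bundle to the membrane, and the cadherins CDHR2 and CDHR5 with the scaffold USH1C (harmonin) link the tips of neighbouring microvilli. KRT20 is a keratin of the intermediate filaments of differentiated enterocytes, on which the brush border rests.

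The probes are 60 bases long, and the first 30 bases of those on which the results turn are shown as the array files list them. The brightest EZR probe and the next share a run of 39 bases, in capitals as far as it lies in the bases shown, so they are close to 1 measurement. The USH1C probe is shown for its difference in LW fetuses, the CDHR2 and VIL1 probes for their variation between fetuses, and the KRT20 and MYO1A probes for their difference with age.
EZR, probe A_72_P051371: gttggaCCTGCACCTGAATACTGATCAGCC
EZR, probe A_72_P641239: CCTGCACCTGAATACTGATCAGCCATAGAG
USH1C, probe O2555: ttgagggactcctcccttgaatttctatag
CDHR2, probe O527: tcatgctgaatctctttactgtggaccaga
VIL1, probe A_72_P437854: acattagttaggaagaaccctccttagctt
KRT20, probe A_72_P291209: actaaaccttacagagcagaggagtctatg
MYO1A, probe A_72_P144681: agaaggggagtcgttgcctggaggtgactg
MYO1A, probe A_72_P170211: ttccaagaaccccaactatatcaggtgtat

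Between 51.2% and 87.6% of the probes of an array were well above background (median 66.7%), with the lowest median, 60.5%, in LW fetuses at day 110. Levels are log2 intensities on a scale where 0 is the 75th percentile of the array, and a difference of 1 is a doubling. Of the 9 probes named by the files, 8 passed the filter on dim probes; the ESPN probe was well above background on 13 of 63 arrays and was not tested. The epithelium markers were present in all fetuses, with a mean level of 3.09 to 3.97 at day 90 and 3.33 to 4.19 at day 110. The mean level of the enterocyte markers (FABP1, FABP2, APOA1, APOA4, ANPEP and LCT) ranged from 5.40 to 6.63 at day 90, and from 2.12 to 7.55 at day 110.

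The first question was whether the microvillus genes changed between day 90 and day 110. KRT20 rose 3.53-fold over the 4 genotypes. None of the 8 tested probes named by the files (CDHR2, EPS8, EZR and USH1C) passed the test on the mean of the genotypes. MYO1A was 3.62-fold higher at day 110, as a description, since its probes were selected on these arrays. A probe counted as called with age if its adjusted p (limma) did not exceed 0.01 and its log2 difference reached 0.5 in size. Among all tested probes 13.8% were called, 6.07% as higher at day 110, so that 0 of 8 lies near this background. The 8 probes differed by -0.22 to 0.37, with a median of 0.17, beside a median of -0.02 over all tested probes. By limma 2 of the 8 had an unadjusted p under 0.05, as had 18898 of the 40515 tested probes.

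**Figure D1:**
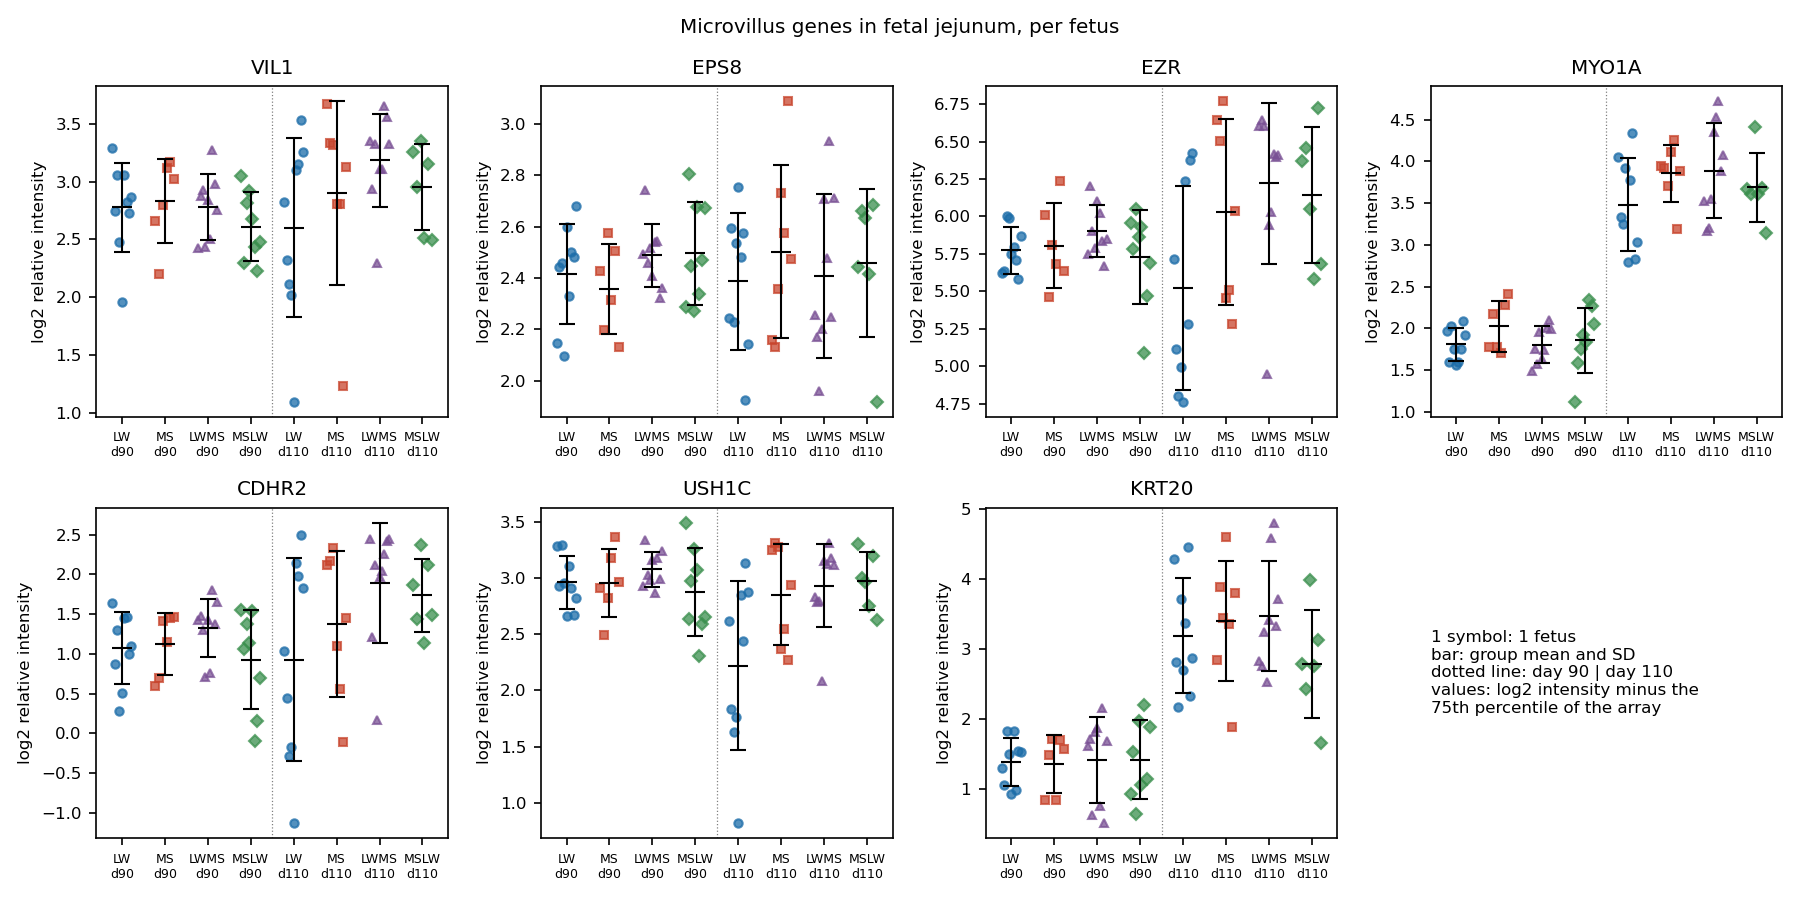
Level of the representative probe of each gene (log2 intensity, scaled by the 75th percentile) in each fetus, by genotype and gestational age; points are fetuses and bars are group means with SD. At day 110 MYO1A lay between 2.80 and 4.72, above all fetuses at day 90 (1.12 to 2.42), while USH1C in LW fetuses reached down to 0.82.

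Among the actin bundling proteins, EPS8, which caps and bundles filaments at the microvillus tip, was the steadiest member. Its brighter probe ranged from 2.10 to 2.80 at day 90 and from 1.92 to 3.09 at day 110, with medians of 2.46 and 2.47. The ages overlapped in every genotype. The difference over the genotypes was -0.00 (95% confidence interval -0.13 to 0.13), an interval that lies within the 0.5 threshold on both sides, and the second EPS8 probe gave 0.05.

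VIL1, which bundles the filaments of the microvillus core, had a mean level of 2.78 ± 0.39 (SD, n = 9) in LW fetuses at day 90 and 2.60 ± 0.78 (n = 9) at day 110. In MS fetuses the level was 2.83 ± 0.36 (n = 6) and 2.90 ± 0.80 (n = 7), and in LWMS fetuses 2.78 ± 0.28 (n = 9) and 3.18 ± 0.40 (n = 9). In MSLW fetuses it was 2.61 ± 0.30 (n = 8) and 2.95 ± 0.37 (n = 6). The ages overlapped in each genotype, and the means differed by -0.18, 0.07, 0.40 and 0.34 in this order, none of them called. Over the genotypes the difference was 0.16 (95% confidence interval -0.09 to 0.41, adjusted p = 0.333 by limma). ESPN, also a bundling protein, was measured by a dim probe, with levels of -7.05 to -3.95 at day 90 and -7.77 to -4.65 at day 110; these mostly lie near background and were not compared.

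EZR and MYO1A connect the actin core with the membrane, and each is described in turn, without a comparison between them. EZR binds the filaments to membrane proteins. In LW fetuses its level at day 90 was 5.58 at the lowest, 5.75 at the median and 6.01 at the highest, and at day 110 it was 4.76, 5.29 and 6.42. In MS fetuses the corresponding levels were 5.46, 5.75 and 6.24 at day 90, and 5.28, 6.04 and 6.77 at day 110. Both breeds thus spread out in both directions: in LW fetuses at day 110, 3 of 9 lay above and 5 of 9 below all LW fetuses at day 90. In LWMS fetuses the lowest, median and highest levels went from 5.67, 5.85 and 6.20 to 4.95, 6.41 and 6.64, and in MSLW fetuses from 5.09, 5.82 and 6.05 to 5.58, 6.21 and 6.73. In these crossbred groups the median was higher at day 110, with 6 of 9 LWMS and 3 of 6 MSLW fetuses above all fetuses of their genotype at day 90. The mean difference over the genotypes was 0.18 (95% confidence interval -0.05 to 0.40, adjusted p = 0.217), and the other 3 EZR probes gave 0.16 to 0.24, none of them called.

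MYO1A is the motor that bridges the actin core and the membrane along the shaft of the microvillus. Its brighter probe ranged in LW fetuses from 1.56 to 2.08 at day 90 (median 1.76) and from 2.80 to 4.34 at day 110 (median 3.33). In MS fetuses it ranged from 1.71 to 2.42 (median 1.98) and from 3.19 to 4.26 (median 3.92), and in LWMS fetuses from 1.49 to 2.11 (median 1.75) and from 3.17 to 4.72 (median 3.89). In MSLW fetuses the range was 1.12 to 2.34 (median 1.88) and 3.14 to 4.41 (median 3.64). No fetus at day 110 overlapped with any fetus at day 90, a separation that 0.0272% of the tested probes (11 of 40515) had. Since the study listed this probe for its change on these arrays, nothing is read from that share. The difference in means was 1.67 in LW, 1.84 in MS, 2.08 in LWMS and 1.83 in MSLW fetuses, and the dimmer probe, well above background on 56 of 63 arrays, gave 1.78 over the genotypes.

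KRT20, whose probe was matched without regard to its values, showed the same direction. In LW fetuses its level was 0.92 at the lowest, 1.495 at the median and 1.83 at the highest at day 90, and 2.17, 2.87 and 4.47 at day 110. In MS fetuses the levels were 0.83, 1.53 and 1.72, then 1.89, 3.45 and 4.60. The ages did not overlap in either breed. How many of all tested probes lack overlap within a genotype was not counted. In LWMS fetuses the levels were 0.51, 1.69 and 2.15, then 2.53, 3.33 and 4.81, again without overlap. In MSLW fetuses they were 0.64, 1.33 and 2.21, then 1.65, 2.77 and 3.98, and 5 of 6 fetuses at day 110 lay above all those at day 90.

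KRT20 rose by 1.82 on the log2 scale over the genotypes (95% confidence interval 1.48 to 2.16, adjusted p = 1.77e-13 by limma). The difference passed in each genotype, at 1.81 in LW (adjusted p = 3.13e-05), 2.05 in MS (1.06e-04), 2.06 in LWMS (1.30e-06) and 1.37 in MSLW fetuses (0.00625); 0.531% of the tested probes were called higher in all 4 genotypes. Each of the 8 slides held fetuses of both ages. With the genotypes of a slide pooled, the difference was 1.09 to 2.75 for KRT20 and 1.52 to 2.43 for MYO1A. Both were higher at day 110 on 8 of 8 slides. The call in MSLW fetuses rests on few fetuses: without fetus 450, 485, 738 or 900 (day 90) or 476, 560 or 688 (day 110) it was lost, with differences of 1.13 to 1.60 over all fetuses left out in turn. The KRT20 call in MSLW fetuses was also lost with median centring (adjusted p = 0.0197), without the filter on dim probes (0.0105), and with the mean level of the enterocyte (0.0508), smooth muscle (0.0437) or epithelium markers (0.0199) as a covariate. Over the genotypes the KRT20 difference with the enterocyte covariate was 1.645, and that of MYO1A, as a description, 1.78.

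**Figure D2:**
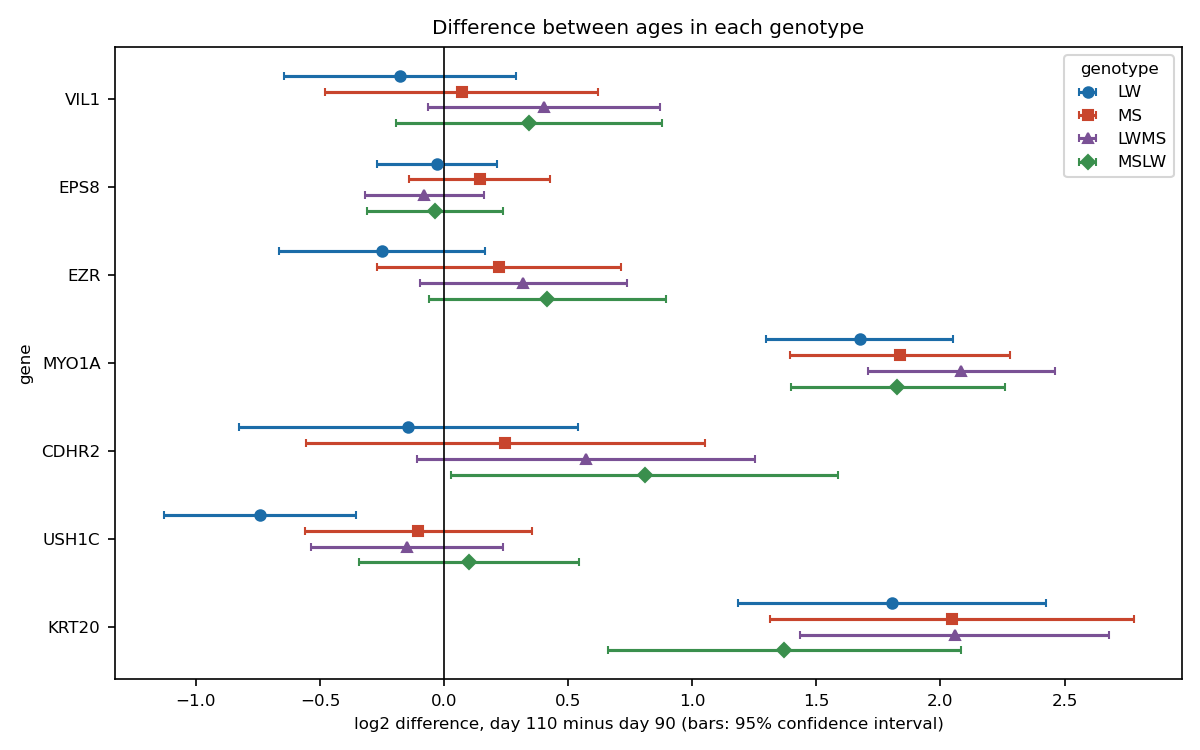
Difference between day 110 and day 90 (log2) for each gene in each genotype, with bars for the 95% confidence interval of the limma fit. KRT20 and MYO1A lie at 1.37 to 2.08 in all genotypes, while USH1C lies at -0.74 in LW fetuses and between -0.15 and 0.10 in the others.

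The members that link microvillus tips did not follow KRT20. USH1C, the scaffold that gathers the link proteins, fell in LW fetuses: its level was 2.66 at the lowest, 2.93 at the median and 3.29 at the highest at day 90, and 0.82, 2.44 and 3.14 at day 110. Of the 9 LW fetuses at day 110, 6 lay below all 9 at day 90. In MS fetuses the lowest, median and highest levels were 2.50, 2.94 and 3.36 at day 90 and 2.27, 2.94 and 3.32 at day 110. In LWMS fetuses they were 2.87, 3.03 and 3.34, then 2.09, 3.12 and 3.31, and in MSLW fetuses 2.31, 2.81 and 3.496, then 2.63, 2.99 and 3.31. The ages overlapped in these 3 genotypes, with 2 of 7 MS, 4 of 9 LWMS and 0 of 6 MSLW fetuses at day 110 below all fetuses of their genotype at day 90, and none above.

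The difference in LW fetuses was -0.74 (SE 0.19, adjusted p = 0.00667 by limma, 1.67-fold lower), the 1 call among the 8 probes named by the files in that contrast, in which 4.76% of all tested probes were called. Litter mates count as independent in this fit, so its p can be too small if litters differ. In MS, LWMS and MSLW fetuses USH1C differed by -0.10, -0.15 and 0.10, with 0 of the 8 probes called in contrasts that called 3.12%, 9.86% and 5.43% of all tested probes. By limma, 0, 0 and 1 of the 8 had an unadjusted p under 0.05 there, beside 8297, 12820 and 10313 of the 40515 tested probes. The difference of USH1C between the ages in MS minus that in LW fetuses was 0.64 (95% confidence interval 0.04 to 1.24, adjusted p = 0.696), so a difference between the breeds in the course of USH1C was not shown; 0.0173% of the tested probes were called in that contrast. Within slides, with all genotypes of a slide pooled, USH1C was lower at day 110 on 8 of 8, by -0.56 to -0.02. These values are not about LW fetuses alone, and the mix of genotypes differed between slides. The call in LW fetuses was lost with median centring (adjusted p = 0.0368), without the filter on dim probes (0.0114), with the slide as a block (0.011), with purebred fetuses alone (0.0441), or without LW fetus 449, 458, 462 or 736 at day 90 or 557, 559, 572 or 575 at day 110, where the difference ranged from -0.86 to -0.57 over all fetuses left out in turn.

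CDHR2, the cadherin whose extracellular part forms the link, had levels of 0.29 at the lowest, 1.104 at the median and 1.64 at the highest in LW fetuses at day 90, and -1.13, 1.04 and 2.50 at day 110. In MS fetuses they were 0.59, 1.28 and 1.46, then -0.11, 1.45 and 2.33. In these breeds, as for EZR, fetuses at day 110 lay on both sides of those at day 90: 4 of 9 above and 3 of 9 below in LW, and 3 of 7 above and 2 of 7 below in MS. In LWMS fetuses the levels were 0.71, 1.42 and 1.81, then 0.16, 2.12 and 2.45, and in MSLW fetuses -0.09, 1.1 and 1.55, then 1.14, 1.67 and 2.37. Here 7 of 9 LWMS and 3 of 6 MSLW fetuses lay above all fetuses of their genotype at day 90. The difference was -0.14 in LW, 0.25 in MS, 0.57 in LWMS and 0.81 in MSLW fetuses, and 0.37 over the genotypes (95% confidence interval 0.00 to 0.74, adjusted p = 0.106); none passed.

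The values of the single LW fetuses at day 110 show where the spread lay. For fetuses 469, 557, 559, 572, 575, 670, 850, 852 and 854, in this order, the CDHR2 level was 1.04, 0.45, -0.29, -0.17, -1.13, 2.15, 1.98, 2.50 and 1.83. The USH1C level was 2.62, 1.83, 1.63, 1.77, 0.82, 2.85, 2.44, 3.14 and 2.88. The VIL1 level was 2.82, 2.32, 2.11, 2.02, 1.09, 3.10, 3.15, 3.53 and 3.26. Fetuses 557, 559, 572 and 575 thus had the 4 lowest levels of all 3 genes, and they also had the 4 lowest of EZR. The order differed for KRT20 (4.28, 2.81, 2.17, 3.72, 2.70, 3.37, 4.47, 2.33 and 2.87) and for MYO1A (4.06, 3.33, 3.25, 3.92, 2.80, 3.77, 4.34, 2.84 and 3.04). Fetus 852, the highest of the group for CDHR2, USH1C and VIL1, was the second lowest for both.

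In the same order of fetuses, the mean level of the enterocyte markers was 7.25, 5.51, 5.13, 5.35, 4.00, 7.27, 6.58, 7.32 and 7.29. That of the smooth muscle markers was 4.825, 5.39, 5.34, 5.504, 5.68, 4.96, 4.86, 4.43 and 4.68. The fetuses lowest in CDHR2 were therefore the lowest in enterocyte markers and the highest in smooth muscle markers, while the epithelium markers lay between 3.62 and 4.01 in all 9. Fetuses 557, 559, 572 and 575 lay on slides 4, 5, 6 and 5. Low values were seen in other genotypes at day 110 too: MS fetus 632 (slide 8) had an enterocyte marker level of 2.12, with CDHR2 at -0.11 and VIL1 at 1.23, and LWMS fetus 609 (slide 3) had a level of 6.02, with CDHR2 at 0.16 and VIL1 at 2.29.

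Over all fetuses the smooth muscle markers ranged from 4.79 to 5.75 at day 90 and from 4.32 to 5.68 at day 110, and 1 of the 6 (ACTA2, -0.55) was called lower at day 110. Of the 6 enterocyte markers, all tested, FABP1 (2.55) and LCT (1.37) rose with age and ANPEP (-0.59) fell. In this contrast over the genotypes, 13.8% of all tested probes were called. With the enterocyte marker level as a covariate, an alternative chosen after seeing the data, the difference of USH1C in LW fetuses was -0.92 (adjusted p = 4.37e-07 by limma). With the smooth muscle level it was -0.79 (adjusted p = 3.08e-04) and with the epithelium level -0.81 (adjusted p = 0.00369). The mean enterocyte marker level in LW fetuses itself went from 5.72 at day 90 to 6.19 at day 110. It also correlated with USH1C between fetuses (r = 0.812 at day 110). The fit with this covariate therefore cannot separate age from the marker level, and its smaller p is not read as a stronger call.

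The spread between fetuses of 1 genotype was larger at day 110. Of 28 combinations of 7 genes with 4 genotypes, 26 had the larger SD at day 110, the exceptions being CDHR2 and USH1C in MSLW fetuses. For EZR in LW fetuses the SD went from 0.16 at day 90 to 0.68 at day 110 (ratio 4.36), and for CDHR2 in LW fetuses from 0.45 to 1.28 (ratio 2.81). Of the 12 tested probes of both kinds of name, 8 had the larger SD at day 110 in all 4 genotypes, as had 16.3% of all tested probes. The 12 probes share fetuses and genes and are not independent of each other. The median ratio of SDs over all tested probes was 1.03 in LW, 1.12 in MS, 1.02 in LWMS and 1.30 in MSLW fetuses.

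**Figure D3:**
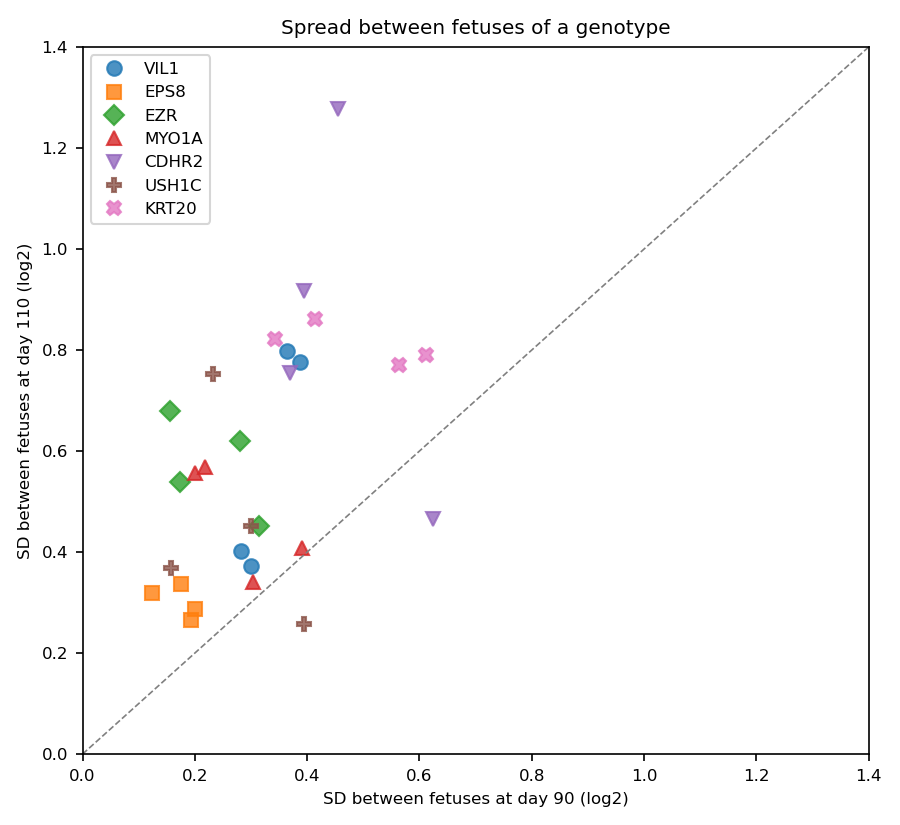
SD between the fetuses of a genotype (log2) at day 90, on the horizontal axis, and at day 110, on the vertical axis, with 1 point for each of 7 genes in each of 4 genotypes and a dashed line of equality. Of the 28 points, 26 lie above the line, and CDHR2 in LW fetuses lies highest, at 1.28.

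To ask whether the members varied together from fetus to fetus, group means were subtracted and correlations were computed within each age, over 32 fetuses at day 90 and 31 at day 110, with permutation within groups (100000 permutations, two-sided) and adjustment over the 98 correlations computed. Litter mates were permuted as independent fetuses, so these p can be too small if litters differ. VIL1, EZR, CDHR2 and USH1C, a grouping made after the values were seen, varied together. At day 110 all 6 pairs among them had an adjusted p under 0.05, with r from 0.791 to 0.923, and at day 90, 4 of 6 had, with r from 0.309 to 0.763. VIL1 and CDHR2 had r = 0.923 at day 110 (rho = 0.922, permutation p = 1e-05 for both, the smallest that these permutations can give, adjusted p = 5.16e-05 and 7e-05), 0.926 without the 2 fetuses farthest from the median of VIL1 and 0.88 without LW fetuses (n = 22). At day 90 their r was 0.737 (rho = 0.739, permutation p = 1e-05 and 3e-05, adjusted p = 5.16e-05 and 1.84e-04). Within the 8 groups r was 0.711 to 0.975, and within the 8 slides 0.553 to 0.987.

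CDHR2 and USH1C, partners in the tip links, had r = 0.701 at day 90 (rho = 0.686) and 0.911 at day 110 (rho = 0.859, permutation p = 1e-05 for both, adjusted p = 5.16e-05 and 7e-05), 0.871 without the 2 fetuses farthest from the median and 0.853 without LW fetuses. Within groups r was 0.547 to 0.956, and within slides 0.57 to 0.956. KRT20 and MYO1A had r = 0.385 at day 90 (rho = 0.393, adjusted p = 0.0929 and 0.103 by permutation) and 0.847 at day 110 (rho = 0.819, permutation p = 1e-05 for both, adjusted p = 5.16e-05 and 7e-05), 0.806 without the 2 farthest fetuses and 0.821 without LW fetuses. Within groups it was 0.053 to 0.963, and within slides 0.414 to 0.972.

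This grouping was drawn from the correlations themselves, so the values between the sets are a description: for the 8 pairs of VIL1, EZR, CDHR2 or USH1C with MYO1A or KRT20, r was -0.415 to 0.0588 at day 90 and -0.0433 to 0.427 at day 110, and 0 of 8 had an adjusted p under 0.05 at either age. The 6 pairs with EPS8 likewise gave 0 at both ages, with r from -0.363 to 0.418 at day 110. At day 110 the level of the enterocyte markers correlated with VIL1 (r = 0.919, rho = 0.878), USH1C (0.812, 0.912), CDHR2 (0.798, 0.766) and EZR (0.764, 0.869), with adjusted p of 5.16e-05 for each r by permutation. For KRT20 and MYO1A the r was 0.401 and 0.313 (adjusted p = 0.091 and 0.12 by permutation). The level of the smooth muscle markers went the opposite way, with r = -0.82 for CDHR2, -0.768 for VIL1, -0.763 for EZR and -0.755 for USH1C, and 0.567 for EPS8 (adjusted p = 0.0055 by permutation), while MYO1A had r = -0.0194. At day 90 the corresponding r with the smooth muscle markers was -0.143 for CDHR2, -0.143 for VIL1, 0.0345 for EZR and -0.0166 for USH1C, none of which passed. With the enterocyte markers r at day 90 was 0.787 for EZR and 0.596 for USH1C, which passed (adjusted p = 9.8e-05 and 0.00419 by permutation), and 0.409 for CDHR2 and 0.266 for VIL1, which did not (0.0813 and 0.227). The part of the makeup of the sample in the shared variation of VIL1, EZR, CDHR2 and USH1C was not tested.

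**Figure D4:**
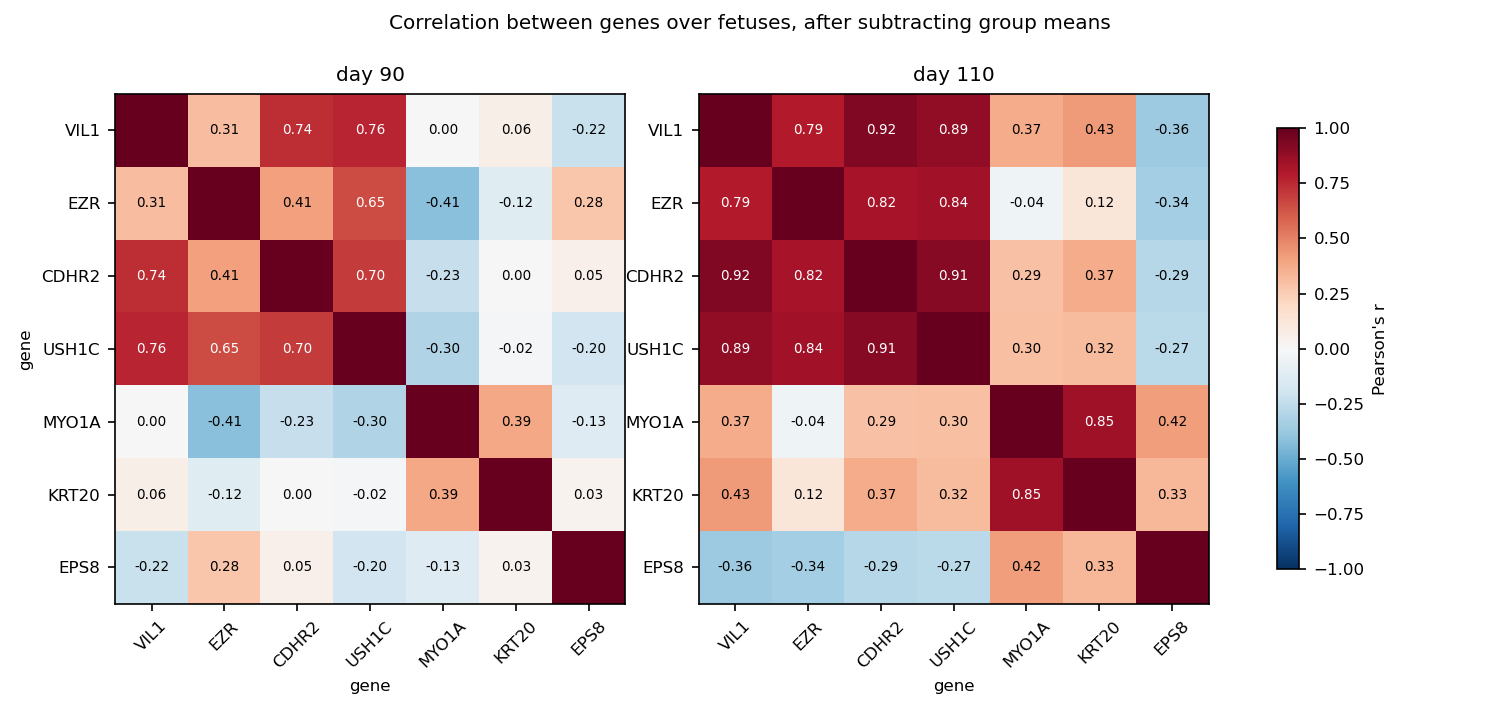
Pearson's r between the 7 measured genes over fetuses after group means were subtracted, at day 90 (left) and day 110 (right), from blue (-1) to red (1). At day 110 VIL1, EZR, CDHR2 and USH1C form a block with r of 0.791 to 0.923, and MYO1A and KRT20 a pair with r of 0.847.

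**Figure D5:**
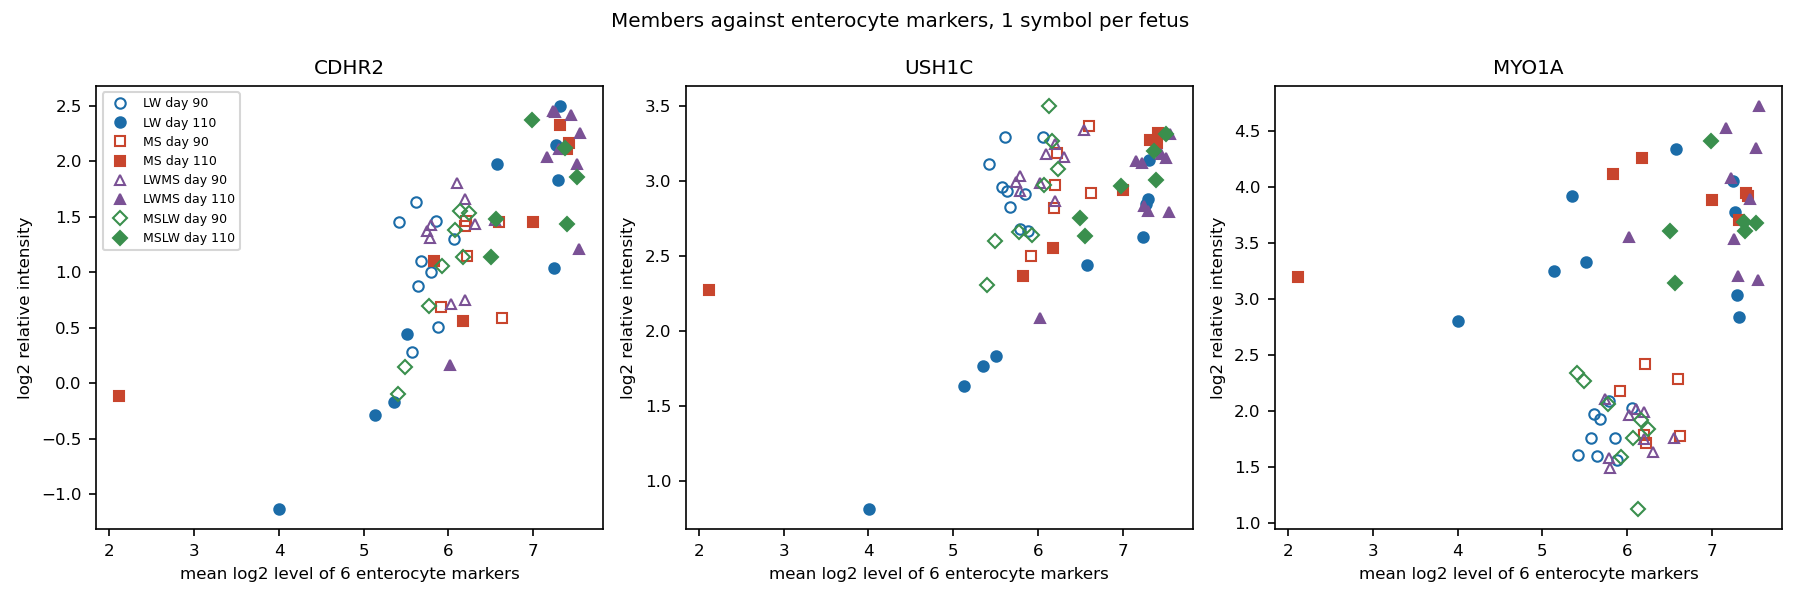
Level of CDHR2, USH1C and MYO1A (log2 relative intensity, vertical axis) against the mean log2 level of 6 enterocyte markers (horizontal axis), with 1 symbol per fetus, by genotype and age. The marker level spans 5.40 to 6.63 at day 90 and 2.12 to 7.55 at day 110, and MYO1A stays above its levels at day 90 in fetuses at the low end.

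The purebred groups were compared to ask whether the breeds differ at each age. At day 90 none of the 8 probes named by the files was called between MS and LW fetuses, beside 3.58% of all tested probes. By limma 0 of 8 had an unadjusted p under 0.05, beside 7298 of the 40515 tested probes. At day 110, 0 of 8 were called (4.99% of all tested probes were). All 8 were higher in MS fetuses, beside a median difference of 0.02 over all tested probes. These 8 probes cover 4 genes in the same fetuses, and 4 of them measure EZR, so the directions are not independent and were not tested. An unadjusted p under 0.05 was found for 4, the USH1C probe and 3 EZR probes of which 2 share sequence, and for 9422 of the 40515 tested probes. With array weights, 4 of the 8 were called in this contrast. The share of all tested probes called in that fit was not counted, so no background stands beside these 4. USH1C had a level of 2.85 ± 0.45 (SD, n = 7) in MS and 2.22 ± 0.75 (n = 9) in LW fetuses, a difference of 0.63 (95% confidence interval 0.22 to 1.05, adjusted p = 0.0367 by limma), or 0.98 with array weights (adjusted p = 6.14e-05). EZR had 6.03 ± 0.62 (n = 7) and 5.52 ± 0.68 (n = 9), a difference of 0.50 (adjusted p = 0.148 by limma). The differences of VIL1, CDHR2 and KRT20 were 0.30, 0.45 and 0.21, with adjusted p of 0.511, 0.5001 and 0.759 (limma).

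The breed of the parents was compared with both ages and all genotypes pooled, at an adjusted p under 0.05. The study, with the sow as a random effect, reported no probe influenced by paternal genotype and a moderate maternal effect. Here litters were left out, and both contrasts also hold part of the difference between the purebred breeds. The shares of all tested probes called are therefore not read as effects of the sow or sire. By sow breed and by sire breed 0 of the 8 probes were called, beside 16% and 6.95% of all tested probes. By limma 0 of 8 had an unadjusted p under 0.05 in either contrast, beside 12119 and 7643 of the 40515 tested probes. USH1C was 0.20 higher in fetuses of MS sows (95% confidence interval -0.01 to 0.41, adjusted p = 0.193) and CDHR2 0.27 higher (-0.10 to 0.64, adjusted p = 0.337). By sire breed the 8 probes differed by -0.02 to 0.12. KRT20, VIL1 and the MYO1A probes were not called in any of the breed, sow or sire contrasts.

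Other genes of the brush border were taken from a list of 49 genes, of which 38 had a tested probe. Over the genotypes 3 were called higher at day 110 and 2 lower, with a median difference of -0.01; 13.8% of all tested probes were called in this contrast, so 5 of 38 is close to the background. SLC9A3R1 (0.79), the scaffold that binds EZR, EPS8L2 (0.64), a relative of EPS8, and MYO5B (0.62), a motor of apical trafficking, rose. FSCN1 (-0.72), which bundles actin in filopodia, and PLS3 (-0.63), a plastin of cells other than enterocytes, fell. By genotype 1 rose and 1 fell in LW, 0 and 0 in MS, 6 and 2 in LWMS, and 2 and 1 in MSLW fetuses, beside 4.76%, 3.12%, 9.86% and 5.43% of all tested probes called. ACTG1, a cytoplasmic actin, was the 1 gene called between MS and LW fetuses at day 90 (0.86 higher in MS) and at day 110 (1.02 higher), and the 1 called by sire breed (0.44 higher with MS sires). ACTG1, ANKS4B, KRT8 and STXBP2 were the 4 of 38 genes called higher in fetuses of MS sows, where 16% of all tested probes were called. ANKS4B, which binds USH1C, was 0.45 higher. These genes were named after their values were seen, and the calls by sow or sire breed are not read as parental effects. None of the 4 other keratins tested (KRT7, KRT8, KRT18 and KRT19) was called with age. KRT19 (-0.49, adjusted p = 4.5e-04 by limma) and KRT8 (0.26, adjusted p = 0.00322) passed the p threshold over the genotypes but not the 0.5 size threshold.

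Of 10 enzymes that microvilli carry, 8 had a tested probe. MGAM (2.20), DPP4 (1.69), SI (1.67) and LCT (1.37) rose over the genotypes and ANPEP (-0.59) fell, as log2 differences. MGAM, SI and LCT split disaccharides and DPP4 and ANPEP split peptides; the other 3 enzymes tested did not pass. Within genotypes 1 enzyme was called in LW, 1 in MS, 3 in LWMS and 2 in MSLW fetuses, all higher at day 110. Among all tested probes 13.8% were called over the genotypes, and 4.76%, 3.12%, 9.86% and 5.43% in these genotypes. The 1 enzyme called was DPP4 both in LW (1.80, adjusted p = 9.06e-09 by limma) and in MS fetuses (1.29, adjusted p = 4.26e-04). With 8 enzymes, a count of 1 is too small to set apart from these shares. Whether the enzymes differed from the structural genes was not tested. LCT and ANPEP are also among the enterocyte markers.

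Finally, the genes whose pattern over the 63 fetuses was most like the mean of the 7 measured members (each centred and scaled) included GOT1 (r = 0.884), SLC9A3R1 (0.881), CAT (0.876), TMC4 (0.871), SPPL2A, SLC46A1 and SLC5A1 (each 0.87), ACBD5 (0.862) and GDPD2 (0.858). After group means were subtracted, they included FOXN2 (0.83), TMC4 (0.828), SPPL2A (0.817), HYAL1 (0.811), SLC5A1 (0.807), GOT1 (0.804), SLC46A1 (0.803) and ELOVL1 (0.803). Of the single members, MYO1A and KRT20 had the same nearest gene, DPP4 (r = 0.825 and 0.759 after group means were subtracted). CDHR2 was nearest to GOT1 (0.915), USH1C to MEP1B (0.891) and EPS8 to F11R (0.791). These values describe likeness over fetuses that share slides and scaling, and were not tested.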

How the data were processed

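Jejunum RNA of 63 fetuses was hybridised to one-colour Agilent 8×60K porcine arrays. The authors deposited each array's linear spot intensity from Agilent Feature Extraction 10.10.1.1 and a log2 matrix of 39446 probes, used here as an alternative; per the file headers the background had been subtracted. The log2 intensity minus the 75th percentile of the array was analysed, without control spots (1319) and with outlier spots missing. No spot was saturated.

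A probe was tested if 75% or more of the arrays in any group had it well above background (40515 of 60305). Means of 8 groups were fitted with limma 3.58.1 in R 4.3.3, with Benjamini-Hochberg adjustment over all tested probes, two-sided; the script was tested on simulated data. The brightest tested probe stood for a gene. All member genes were named, with the 4 most extreme called genes each way of the wider list and the 10 genes most like the members, some of which are not reported here. The members, the lists and the alternatives were chosen with earlier results of these data known.

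Of the probes, 21481 were named by the files, 2985 by a gene number, 672 by a transcript and 628 by a synonym of RefSeq, and 34539 had no name. The sow, a random effect in the study's model, was not used, so litter mates count as independent. The p of the limma fits can therefore be too small if litters differ. No genome coordinates were used. Each array is 1 fetus, so their number limits the precision. Alternatives were other background correction, scaling, filter, weights, covariates, slides and each fetus left out.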

Additional observations from a re-analysis of the deposited data

Results flagged for a closer look

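Fetuses far from the others of their group were sought for each of 13 probes in each of 8 groups, 104 pairs in all, by the gap to the nearest fetus relative to the range of the group (Dixon's criterion). It flags about 1 in 20 groups by chance, and 10 of the 104 were marked. LWMS fetus 609 at day 110 was low in 4 of these: in the brightest EZR probe (4.95, next 5.94) and the one that shares its sequence (4.74, next 5.62), in USH1C (2.09, next 2.79), and in ESPN (-7.77, next -5.94), whose probe was well above background on 13 of 63 arrays. MS fetus 632 at day 110 was low in VIL1 (1.23, next 2.80).

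MSLW fetus 851 at day 110 was low in EPS8 (1.92, next 2.42). The dimmer MYO1A probe was high in LW fetus 850 (-0.95, next -2.23) and low in LWMS fetus 405 (-3.65, next -2.50), both at day 110. At day 90 the dim ESPN probe was high in LWMS fetus 509 (-4.84, next -5.60) and the dimmest EZR probe was low in MSLW fetus 900 (-6.07, next -4.94).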

How the results depend on the processing

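Apart from the repeats without 1 fetus and the values within slides, 127 of 142 counts of called probes were unchanged. Of the values of single genes, 193 of 215 kept their direction and side of the threshold. The count in LW fetuses (1) was 0 with median centring, without the filter, with slides as a block and with purebred fetuses alone, and 0 to 1 without 1 fetus; it was 4 with the KRT20, MYO1A and VIL1 probes added and 2 with the enterocyte marker level as a covariate, an alternative chosen after seeing the data. With the added probes the count was 3 over the genotypes and in MS, LWMS and MSLW fetuses; 2 of these 3 are the MYO1A probes, which were selected on these arrays, so these counts are a description. With the enterocyte covariate it was 1 in LWMS fetuses. Between MS and LW fetuses at day 110 the count (0) was 4 with array weights, 1 with the smooth muscle covariate, 2 with the enterocyte covariate, and 0 to 1 without 1 fetus (1 without LW fetus 852); USH1C differed there by 0.98 with array weights (adjusted p = 6.14e-05 by limma). By sow it was 5 with array weights. For the alternative fits the share of all tested probes called was not counted, so these counts have no background beside them.

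The EPS8 difference with age turned positive with median centring (0.050), the slide block (0.0076), the smooth muscle (0.080) or enterocyte covariate (0.068) and its other probe (0.046), and in 32 of 63 repeats without 1 fetus (-0.025 to 0.026). EZR turned to -0.019 and -0.090, and VIL1 to -0.066 and -0.16, with the smooth muscle and enterocyte covariates, and CDHR2 to -0.061 with the latter. Within slides, CDHR2 (-0.40) and VIL1 (-0.27) were lower at day 110 on slide 5 and EZR (-0.03) on slide 1, and EPS8 was higher on 3 of 8 slides. None of these was called. KRT20 in MSLW fetuses missed the threshold with median centring (adjusted p = 0.0197), no filter (0.0105), and the epithelium (0.0199), smooth muscle (0.0437) and enterocyte (0.0508) covariates (limma). The cause was not tested.

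No paired analysis was possible because no fetus number is shared between groups; the slide block is the blocking that was run. Litters were not separated, and the dim ESPN probe, EZR probe O655 and second MYO1A probe lie near background, where differences are uncertain.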
